A study of Mus musculus with 9 samples.

Results

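F13a1 and Tgm2 are transglutaminase genes, and they were taken by symbol as 2 of the 26202 genes in an RNA sequencing table of ATDC5 cells. The pair was chosen because F13a1 was far lower with ethanol, so the values of both genes for ethanol against control are descriptions and carry no test. The same holds for F13a1 in acetate against ethanol, since the low ethanol values entered the choice. ATDC5 is a mouse chondrogenic cell line that passes through steps of cartilage differentiation in culture. The series asks whether acetate, a product of ethanol breakdown, might account for what ethanol does to chondrocyte differentiation and bone genes. There were 3 libraries labelled Control, 3 labelled Acetate and 3 labelled Ethanol. All 9 came from cells kept in DMEM/F-12 with 5% FBS. Insulin-transferrin-selenium, 10 mM beta-glycerophosphate and ascorbate at 50 µg/mL were then added, along with the treatments. The sources used here give no dose or time for either treatment and do not say what the controls received; the treatment text attached to these samples describes mouse livers and HepG2 cells, not ATDC5 cells, and was not used. Nothing in the labels says that libraries of a group were separate cultures, so p-values measure the spread between these libraries, which may be technical.

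Transglutaminases are calcium-dependent enzymes that join a glutamine of one protein to a lysine of another, a bond that few proteases cut. F13a1 codes for the catalytic A subunit of coagulation factor XIII, which thrombin activates and which stabilises fibrin clots, and which chondrocytes, osteoblasts and macrophages also make. Tgm2 codes for tissue transglutaminase, found inside cells, at the cell surface and in the matrix, where it also acts as an adhesion partner of fibronectin and integrins. Both enzymes are known from growth plate cartilage, where they are most prominent around the hypertrophic zone, and they crosslink proteins of the cartilage and bone matrix.

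The genes were compared over a short coding stretch at the catalytic centre. F13a1 (ENSMUSG00000039109.16) lies on the minus strand of chromosome 13, from 36867178 to 37050244, and Tgm2 (ENSMUSG00000037820.15) on the minus strand of chromosome 2, from 158116402 to 158146436, on GRCm38. The longest coding transcript of F13a1 has 15 exons and 732 codons, and that of Tgm2 has 13 exons and 686 codons. The stretches below are 63 coding bases of each mRNA, 5′ to 3′, with the codon of the active-site cysteine in capitals. This is codon 315 of F13a1, in exon 7 (chr13:36946471-36946473), and codon 277 of Tgm2, in exon 6 (chr2:158131359-158131361). Each stretch runs on into the next exon.
F13a1: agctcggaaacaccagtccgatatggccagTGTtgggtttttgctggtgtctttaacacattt
Tgm2: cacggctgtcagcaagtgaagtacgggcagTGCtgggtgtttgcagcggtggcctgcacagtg
Aligned without gaps, 32 of the 63 bases were identical, 50.8%. The stretches were centred on the conserved motif used to find them, and no other part of the genes was compared. The genes also differ in composition, with 45.9% GC in the F13a1 transcript and 57.1% in that of Tgm2, which bears on one of the libraries below.

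Levels are in CPM, read counts scaled by TMM factors to a common library size and derived from the authors' deposited log2 values, and errors of levels are SDs over n = 3 libraries. Between 28.7 and 41.9 M reads per library were recovered from those values. F13a1 rested on 646 to 3079 reads per library and Tgm2 on 7407 to 12115. One library differed from the rest, acetate replicate 2: across 12747 genes its deviation from the gene means rose with the GC content of the transcripts (Pearson r = 0.81, against -0.36 to -0.15 in the other 8 libraries). Results that rest on it are given with and without it. Beside the cell line label, 6 chondrocyte markers were read (Col2a1, Acan, Sox9, Matn1, Comp and Col9a1), all of which were present. Their summed levels were 9132 to 12117 CPM in control, 4915 to 5705 in acetate and 4360 to 5493 in ethanol. A list of 6 osteoblast markers summed higher, to 17928.9 to 21578.5 CPM in control, 19478 to 21142.7 in acetate and 13025.9 to 14413.2 in ethanol. With ethanol 5 of the 6 chondrocyte markers fell, where 2.45% of all tested genes did. Sox9 fell too with replicate number as a block (limma, adjusted p = 0.022), where 5.07% of all genes did. The ethanol call of Acan was lost without control replicate 1 or 3 or any 1 ethanol library (limma, adjusted p up to 0.14 over its alternatives). With acetate 4 of the 6 fell, where 0.497% of all tested genes did. None of the 6 fell without control replicate 1 or 3, 1 without acetate replicate 3, and 2 without control replicate 2 or ethanol replicate 3. All 6 fell without acetate replicate 2, where 1.55% of all genes did.

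F13a1 was expressed at a moderate level in control and acetate cells and at a far lower level in ethanol cells. It stood at 84.6, 80.4 and 74.9 CPM in control replicates 1, 2 and 3, at 78.0, 54.9 and 75.8 in acetate, and at 18.3, 17.6 and 19.5 in ethanol. Every ethanol library lay below every other library, and the acetate values overlapped the control range except for replicate 2, the lowest library outside ethanol. Group means were 79.9 ± 4.89 in control, 69.6 ± 12.8 in acetate and 18.5 ± 0.921 in ethanol. Control and acetate, neighbours in that order, did not differ beyond their spread, and their ranges overlapped, as in all but 19.5% of tested genes.

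The mean of F13a1 in ethanol was 4.33 times lower than in control. On the scale of log2(CPM + 1), which is used for all differences, this was -2.06 ± 0.14 (SE from limma over all 9 libraries). It was the 6th lowest difference among the 12868 genes tested, those that averaged 1 CPM or more. With any 1 library left out it ranged from -2.10 to -2.01. For scale, 2.45% of tested genes were called lower with ethanol at an adjusted p under 0.05, and in 23.3% the 3 ethanol values lay below the 3 control values, from which nothing is read for a gene chosen on this contrast.

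With acetate, F13a1 did not pass the threshold. Its difference from control was -0.21 ± 0.14 (limma, Benjamini-Hochberg adjusted p = 0.46), with a 95% interval of -0.54 to 0.11 that is not adjusted for the number of genes. In an exact two-sided permutation test of the same 6 libraries p = 0.3, where 3 against 3 cannot go below 0.1. Without acetate replicate 2 the difference was -0.05 (adjusted p = 0.79, interval -0.24 to 0.14), and after removal of the GC trend it was -0.08. Acetate was higher than ethanol by 1.84 ± 0.14, a ratio of means of 3.77, and by 2.00 without acetate replicate 2. The comparisons share libraries: the same 3 controls stand in both treatment contrasts, so their differences are not independent of each other.

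**Figure D1:**
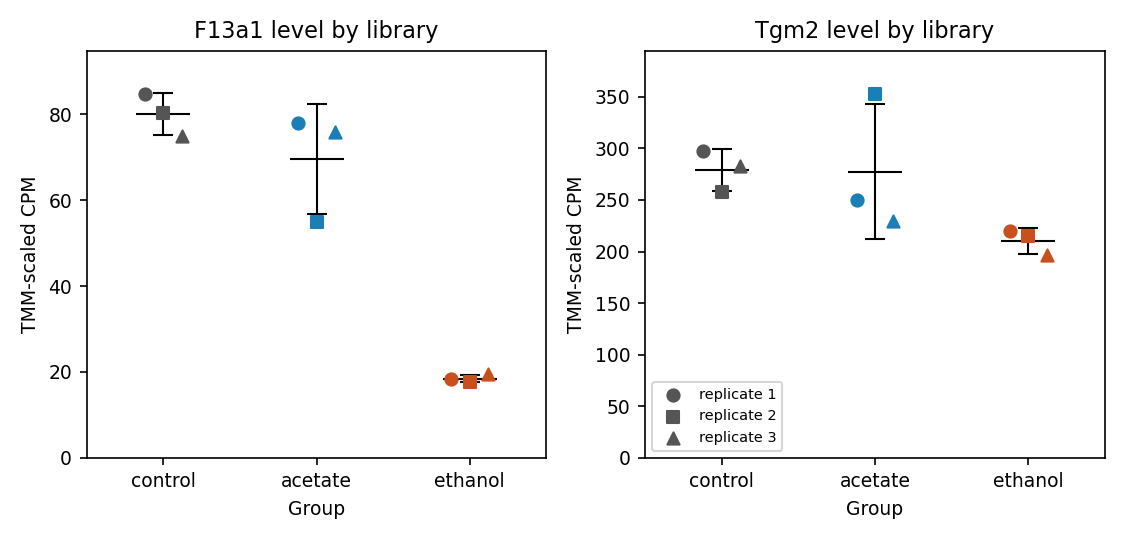
Level of F13a1 (left) and Tgm2 (right) in TMM-scaled CPM for each of the 9 libraries, by group. Symbols are replicate numbers, horizontal bars are group means and whiskers are SDs (n = 3). The F13a1 values in ethanol sit between 17.6 and 19.5, far below the rest, while acetate replicate 2 is the lowest acetate library for F13a1 and the highest library of all for Tgm2.

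Tgm2 was the more abundant gene, and its group means lay closer together. It stood at 297, 258 and 283 CPM in control replicates 1, 2 and 3, at 250, 352 and 230 in acetate, and at 219, 215 and 196 in ethanol. The 3 ethanol libraries were the lowest of the 9, close under acetate replicate 3, and acetate replicate 2 was the highest. Group means were 279 ± 20.2 in control, 278 ± 65.6 in acetate and 210 ± 12.2 in ethanol. Control and acetate did not differ beyond their spread.

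Against control, Tgm2 in ethanol was lower by a ratio of means of 1.33, a difference of -0.41 ± 0.16, ranging from -0.46 to -0.36 with any 1 library left out. The 3 ethanol values lay below the 3 control values, as they did in 23.3% of tested genes. In acetate the difference from control was -0.03 ± 0.16 (limma, adjusted p = 0.92; exact permutation p = 0.9), with a 95% interval of -0.39 to 0.33. Neither F13a1 nor Tgm2 was thus among the 1.00% of tested genes called for acetate against control.

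The Tgm2 value with acetate rested on 1 library. Without acetate replicate 2 its difference from control was -0.22 (adjusted p = 0.25, interval -0.42 to -0.01), and it was 0.09 without acetate replicate 3. With the GC trend removed and replicate number as a block it was -0.21 and passed (adjusted p = 0.034; 0.034 to 0.99 over its 20 alternatives), in a fit that called 20.4% of tested genes. Its sign turned with upper-quartile scaling, to 0.0031. In acetate replicate 2, F13a1, the gene of lower GC content, was at its lowest outside ethanol, and Tgm2, the gene of higher GC content, was at its highest.

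Acetate against ethanol was tested directly for Tgm2. Tgm2 was higher in acetate by 0.38 ± 0.16, a ratio of means of 1.32, and missed the threshold (limma, adjusted p = 0.22; exact permutation p = 0.1, the smallest this design allows). All 3 acetate values lay above the 3 ethanol values, as in 15.3% of tested genes, and 3.73% of tested genes were called in either direction. The 95% interval was 0.02 to 0.74. Without acetate replicate 2 the difference was 0.19 (adjusted p = 0.23), and with the GC trend removed and replicate number as a block it was 0.18 and passed (adjusted p = 0.036; 0.036 to 0.50 over its 20 alternatives), in a fit that called 33.3% of tested genes.

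**Figure D2:**
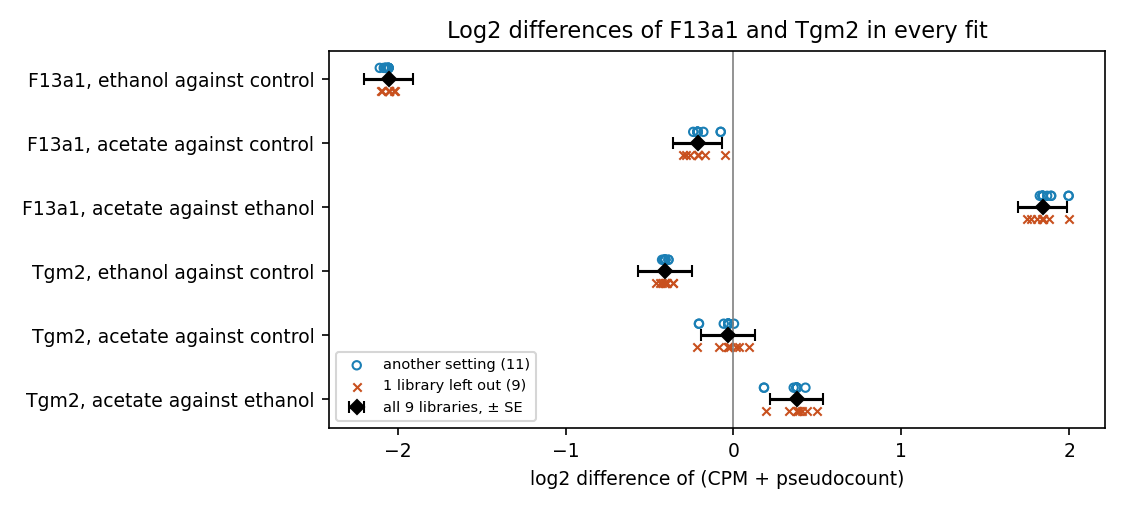
Log2 differences of F13a1 and Tgm2 in the 3 comparisons, on the x axis. Black diamonds are the fit of all 9 libraries with its SE, open circles are the 11 other settings, and crosses are the 9 fits that leave out 1 library. The F13a1 differences that involve ethanol lie beyond 1.75 in size in every fit, while those of Tgm2 with acetate against control lie on both sides of 0.

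Compared per length of transcript, Tgm2 exceeded F13a1 in all 9 libraries. In control, Tgm2 had 77.7 ± 5.61 CPM per kb and F13a1 20.2 ± 1.24, and in ethanol they had 58.5 ± 3.39 and 4.67 ± 0.233. F13a1 made up 20.7 ± 1.35% of the length-scaled sum of both genes in control, 19.2 ± 5.90% in acetate and 7.43 ± 0.731% in ethanol. The acetate libraries had shares of 22.1%, 12.4% and 23.1%, with replicate 2 alone below the control range of 19.4% to 22.1%. These shares rest on the same values as the differences above and are a description.

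Of the 10 genes of the transglutaminase family, F13a1 and Tgm2 were the only ones with a mean of at least 1 CPM. They held 99.5% to 99.9% of the summed CPM of the family in each library, and the other 8 together reached 0.556 to 1.16 CPM. Tgm3, an epidermal and hair follicle enzyme, had 9 to 23 reads per library. Tgm5, also of the epidermis, had 3 to 11 reads, and Tgm1, the keratinocyte enzyme of the cornified envelope, 1 to 7. Tgm4, the prostate enzyme, had 0 to 6 reads, as did Tgm6, while Epb42, which codes for a catalytically inactive relative of red blood cells, had 0 to 5. Tgm7 had 0 or 1 read per library, and so had F13b, which codes for the carrier B subunit of plasma factor XIII. The 8 genes averaged under 1 CPM and were not tested in the main fit, so no difference between groups is read from these counts.

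The classical substrate of factor XIII and its activator had next to no RNA in these cells. Fga, Fgb and Fgg, which code for the chains of fibrinogen, had no reads in any library, which allows up to 0.0692 to 0.104 CPM per library at 3 reads, for counting error only. F2, which codes for thrombin, stayed between 0 and 0.14 CPM. F2r, the thrombin receptor gene, was present at 30.2 ± 0.985 CPM in control and 38.4 ± 3.88 in ethanol, a difference of 0.33 that did not pass (adjusted p = 0.23).

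Substrates that do belong to cartilage and bone were abundant. Of 18 genes for matrix proteins known as transglutaminase substrates, 12 had a mean of at least 1 CPM and were tested. With ethanol 3 of the 12 fell and 1 rose, where 2.45% of all tested genes fell and 1.48% rose, and the median difference was -0.40 against -0.00084 over all genes. Col2a1, which codes for the main collagen of cartilage, fell from 9089 ± 1320 to 4008 ± 447 CPM (-1.18 ± 0.15, limma adjusted p = 0.0048). Col11a1, the gene of a collagen in the same fibrils, fell from 1786 ± 233 to 880 ± 116 (-1.02 ± 0.21, adjusted p = 0.030). Sparc, which codes for osteonectin, fell as well (-0.57 ± 0.11, adjusted p = 0.030), and Fbn1, the fibrillin-1 gene, rose from 205 ± 10.7 to 295 ± 16.2 (0.53 ± 0.10, adjusted p = 0.024).

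Fn1 and Spp1, the genes of fibronectin and osteopontin, are classical substrates of both enzymes and did not pass with ethanol. Fn1 stood at 9677 ± 506 CPM in control and 8481 ± 301 in ethanol (-0.19, adjusted p = 0.55), and Spp1 at 2357 ± 280 and 2069 ± 239 (-0.19, adjusted p = 0.62). Ibsp, the bone sialoprotein gene, stood at 7268 ± 595 and 4249 ± 244 (-0.77, adjusted p = 0.062). With replicate number as a block 5 of the 12 substrates fell, with Ibsp and Col3a1 added, and 2 rose, with Ltbp1 added, beside 5.07% and 3.27% of all genes. Without acetate replicate 2, 7 fell, with Col1a1 and Col5a1 added to these, and the same 2 rose, beside 11.3% and 10.2%. The calls of Col11a1, Sparc and Fbn1 were each lost when any 1 control or ethanol library was left out (adjusted p up to 0.16, 0.37 and 0.15 over their alternatives), and that of Col2a1 only with no filter on low values (0.12), a setting that also ended those of Col11a1 and Sparc.

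With acetate 2 of the 12 substrates fell and none rose, beside 0.497% and 0.505% of all genes, and the median difference was -0.11 against -0.0097. The 2 were Col11a1 (-1.24 ± 0.21, adjusted p = 0.031) and Col2a1 (-1.06 ± 0.15, adjusted p = 0.017). Without acetate replicate 2, 2 fell and 1 rose, beside 199 and 251 of all 12853 genes. With replicate number as a block 2 fell and 1 rose, beside 118 and 175 of all 12868. With the GC trend removed as well, 5 fell and 1 rose, beside 1274 and 1354. Fn1 was at 9929 ± 1818 CPM in acetate (0.02, adjusted p = 0.94) and Spp1 at 2152 ± 395 (-0.14, adjusted p = 0.65). Among the fits with 1 library left out, the Col2a1 call was lost without control replicate 1, control replicate 3 or acetate replicate 3, and that of Col11a1 also without control replicate 2 or any 1 ethanol library. Over all alternatives the adjusted p reached 0.24 for Col2a1 and 0.18 for Col11a1. In acetate against ethanol, Col1a1, the main collagen gene of bone, was higher in acetate (0.69 ± 0.15, adjusted p = 0.037) and Fbn1 lower (-0.47 ± 0.10, adjusted p = 0.033), 1 gene each way beside 2.84% and 0.886% of all genes. Over the 9 fits with 1 library left out, Col1a1 passed only without acetate replicate 3 and Fbn1 only without acetate replicate 2.

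The listed genes for proteins that hold transglutaminases at the cell surface or switch them were all tested, as RNA. Of these 13 genes none passed with ethanol in limma (Sdc4 and P2rx7, 2 in all, had an unadjusted p under 0.05), with a median of -0.18. P2rx7, a purinergic receptor gene, rose with replicate number as a block, where 3.27% of all genes rose. It also rose without acetate replicate 2, and in that fit Lrp1 and Pdia3 fell, beside 10.2% and 11.3% of all genes. Itga1, the integrin chain reported to work with factor XIII A in chondrocytes, stood at 8.14 ± 0.346 CPM in control and 6.33 ± 0.877 in ethanol (-0.33, adjusted p = 0.36), and its partner Itgb1 at 1095 ± 85.2 and 965 ± 25.7 (-0.18, adjusted p = 0.75). Of the genes for fibronectin-binding partners, Itga5 differed by 0.04 (adjusted p = 0.94) and Sdc4, a syndecan gene, by -0.38 (adjusted p = 0.22). Lrp1, the endocytic receptor gene that clears surface Tgm2 protein, differed by -0.31 (adjusted p = 0.35). Txn1, whose product thioredoxin reduces and activates the enzyme outside cells, differed by -0.21 (adjusted p = 0.60), and Pdia3, whose product oxidises and silences it, by -0.42 (adjusted p = 0.46).

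With acetate 1 of the 13 rose and none fell, beside 0.505% and 0.497% of all genes, with a median of -0.06. This was Adgrg1, which codes for the adhesion receptor GPR56, a binding partner of tissue transglutaminase. It stood at 14.3, 12.8 and 12.1 CPM in control, at 25.2, 32.6 and 23.6 in acetate, and at 12.8, 11.9 and 11.9 in ethanol. Every acetate value lay above every other library. For scale, acetate and control did not overlap, in either direction, in 19.5% of tested genes, and acetate lay above ethanol in 15.3%. The Adgrg1 difference of acetate was 0.99 ± 0.14 from control (adjusted p = 0.016) and 1.08 ± 0.14 from ethanol (adjusted p = 0.0049), while ethanol differed from control by -0.09 (adjusted p = 0.79). The call against ethanol held in all 20 alternatives (adjusted p 0.00020 to 0.043). The call against control was lost without any 1 control library or with only the 6 libraries compared (0.00040 to 0.12 over its alternatives). With replicate number as a block and the GC trend removed, 4 of the 13 rose and 1 fell with acetate. In that fit 1354 and 1274 of all 12868 genes did so.

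Among 10 coagulation and fibrinolysis genes around factor XIII, 6 were tested. With ethanol 1 rose and none fell, where 1.48% of all tested genes rose and 2.45% fell: Plat, which codes for tissue plasminogen activator, stood at 55.5 ± 3.38 CPM in control and 75.6 ± 3.72 in ethanol (0.44 ± 0.10, adjusted p = 0.045). Leaving out 1 library ended this call except in the case of acetate replicate 2 (adjusted p up to 0.23 over its alternatives). Without that library F2r rose too, beside 10.2% of all genes. With acetate none of the 6 passed (only Plat had an unadjusted p under 0.05, and none passed with replicate number as a block). Of 12 genes for factors known to act on transglutaminase genes, among them NF-kB subunits, retinoid receptors, Hif1a, Smad3 and Tgfb1, none passed with ethanol (0 at an unadjusted p under 0.05) or with acetate (2 at an unadjusted p under 0.05, Rara and Tgfb1). Without acetate replicate 2, 2 of these fell with ethanol, Hif1a and Tgfb1, and 1 with acetate, Tgfb1, beside 11.3% and 1.55% of all genes. With the block and the GC trend removed, 1 of the 12 rose and 2 fell with acetate, beside 1354 and 1274 of all 12868 genes.

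**Figure D3:**
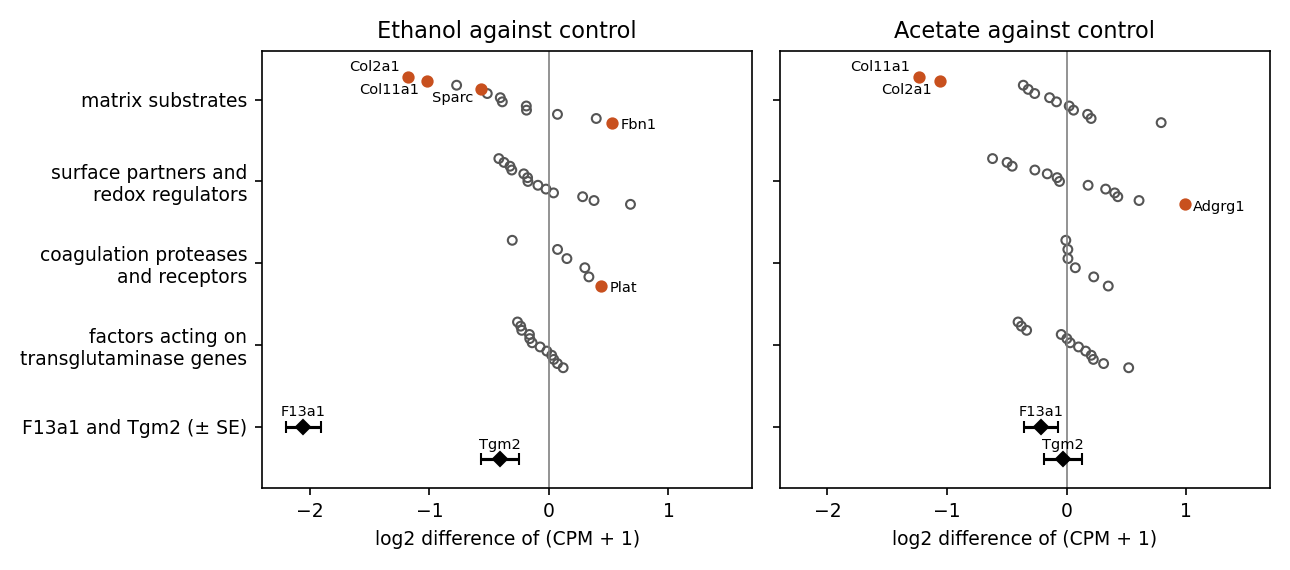
Log2 differences of the tested genes of 4 lists around the transglutaminases, and of F13a1 and Tgm2 with their SE (black diamonds), for ethanol (left) and acetate (right) against control. Filled points with names passed an adjusted p of 0.05 and open points did not. F13a1 at -2.06 with ethanol lies to the left of all genes of the lists, and Adgrg1 at 0.99 is the only filled point of the surface partners with acetate.

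F13a1 is also a marker of macrophages and of megakaryocytes and platelets, so genes of these cells were read beside it. Of 10 macrophage markers, 8 had a mean under 1 CPM. Tyrobp was at 0 in every library and Adgre1 in all but acetate replicate 2, where it reached 0.03 CPM. The list summed to 4.11 to 5.20 CPM in control, 3.99 to 5.21 in acetate and 3.62 to 4.35 in ethanol. Its highest members were Cd14 (2.22 ± 0.332 in control and 2.22 ± 0.642 in ethanol) and Lyz2, the lysozyme gene. Lyz2 stood at 1.40 ± 0.340 CPM in control, 1.18 ± 0.0696 in acetate and 0.602 ± 0.178 in ethanol. Its 3 ethanol values lay below the 3 control values, as in 23.3% of tested genes, F13a1 among them. Its ethanol difference of -0.58 missed the threshold (limma, adjusted p = 0.053), passed with replicate number as a block (0.041) and without acetate replicate 2 (0.018), and ranged from 0.013 to 0.21 over the 17 alternatives that tested it. Its part in the F13a1 result was not tested. The 6 megakaryocyte and platelet markers summed to 6.33 to 7.16 CPM in control, 5.54 to 8.15 in acetate and 6.92 to 7.57 in ethanol, led by Itga2b (5.09 ± 0.263 in control and 5.18 ± 0.355 in ethanol), while Pf4 did not exceed 0.05 CPM. The 5 adipocyte markers summed to 70.4 to 72.9 CPM in control, 51.1 to 82.8 in acetate and 57.8 to 67.7 in ethanol, with Adipoq at no more than 0.25.

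Hypertrophic chondrocytes are the cartilage cells best known for both enzymes. Of 6 hypertrophic markers, 4 fell with ethanol (Col10a1, Ihh, Mmp13 and Alpl) and 3 with acetate (Alpl not among them), beside 2.45% and 0.497% of all tested genes, with medians of -0.78 and -0.55. Col10a1, their collagen gene, was at 269 ± 26.5 CPM in control, 81.6 ± 16.2 in acetate and 111 ± 6.15 in ethanol. Ihh, the hedgehog ligand gene, was at 21.4 ± 2.42, 10.4 ± 1.26 and 5.05 ± 0.567, and Alpl at 819 ± 66.3, 896 ± 133 and 540 ± 9.82. Whether these genes are tied to F13a1 was not tested. With 1 library left out, the ethanol calls of Col10a1 and Ihh held, that of Mmp13 was lost without ethanol replicate 1 or 2, and that of Alpl without any 1 control or ethanol library. The acetate call of Col10a1 was lost without control replicate 3 (adjusted p = 0.053), that of Ihh without any 1 control or acetate replicate 3, and that of Mmp13 without acetate replicate 3 or any 1 ethanol library. Mmp13 averaged under 1 CPM, and so was not tested, when any 1 control library was left out. Of 6 osteoblast markers 1 fell with ethanol, Bglap, which codes for osteocalcin, at 15.7 ± 3.37, 23.1 ± 3.97 and 4.26 ± 0.692 CPM, where 2.45% of all tested genes fell. With replicate number as a block 2 fell, with Ibsp added, and Dmp1, an osteocyte matrix gene, rose, beside 5.07% and 3.27% of all genes. Without acetate replicate 2, 3 fell, with Col1a1 added to these, and Dmp1 rose, beside 11.3% and 10.2%. Without acetate replicate 1 Bglap and Ibsp fell, as did 320 of all 12884 genes tested in that fit. With acetate none of the 6 osteoblast markers passed in the main fit or without acetate replicate 2. With replicate number as a block Dmp1 alone rose with acetate (0.77, limma adjusted p = 0.022), beside 175 of all 12868 genes. In bulk libraries fewer cells of a type and less RNA per cell cannot be told apart.

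Other genes share the F13a1 pattern to a degree. Likeness was measured as the root mean square difference over the 9 libraries of log2(CPM + 1) centred on each gene's mean, over the 10932 genes that averaged 5 CPM or more. The nearest was Sema3b, a secreted semaphorin gene (0.27), then Penk, the proenkephalin gene (0.32), Syt8, a synaptotagmin gene (0.32), Itm2a, a membrane protein gene first found in cartilage and bone cultures (0.38), and Egln3, an oxygen sensor gene (0.39). The median gene was at 0.96. Sema3b stood at 18.9 ± 0.478 CPM in control, 17.2 ± 3.08 in acetate and 4.33 ± 0.672 in ethanol. Penk was already lower in acetate, at 166 ± 11.2, 120 ± 7.47 and 48.3 ± 11.6. These distances are descriptions, since they contain the contrast on which F13a1 was chosen.

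The genes nearest to Tgm2 were far closer to it, and they had in common the high value in acetate replicate 2. Fdxr, the ferredoxin reductase gene, was at 0.037, Man2b2, an alpha-mannosidase gene, at 0.043, Hspg2, which codes for the matrix proteoglycan perlecan, at 0.044, Plod3, a collagen lysyl hydroxylase gene, at 0.045, and Gmppa at 0.046. The median gene was at 0.32. The transcripts of these 5 had 56.6% to 60.9% GC, beside 57.1% for Tgm2, whereas those of the 5 genes nearest to F13a1 had 41.7% to 57.9%.

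**Figure D4:**
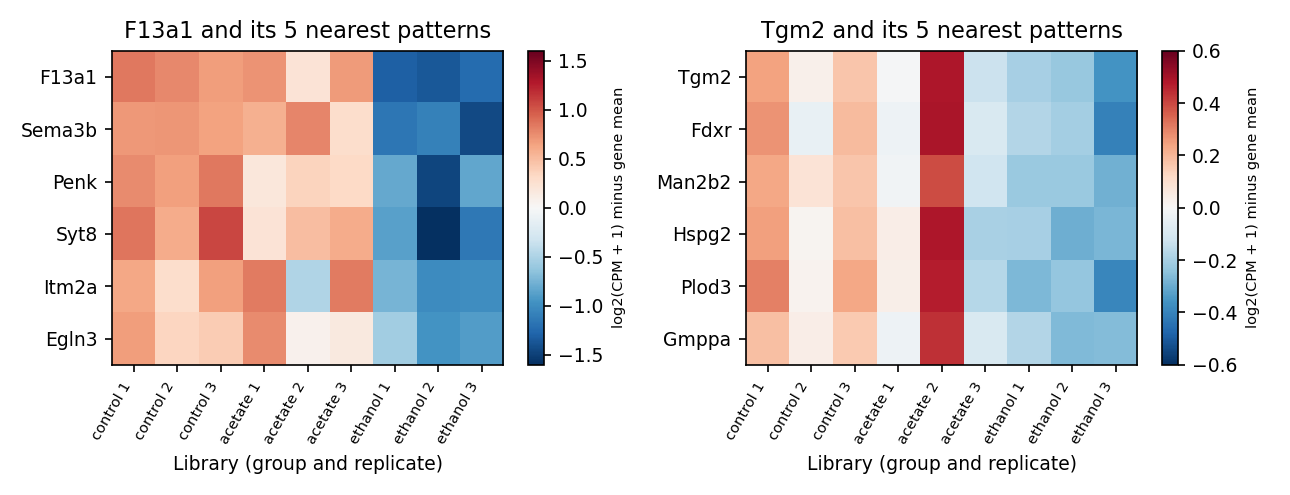
Level of F13a1 (left) and Tgm2 (right) with the 5 genes of nearest pattern, as log2(CPM + 1) minus the mean of each gene, by library; the colour scales differ between the panels. The left panel is blue in the 3 ethanol libraries for all 6 genes, and the right panel is darkest red in acetate replicate 2 for all 6.

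Genes beside F13a1 on the chromosome were also read. Nrn1, 132 kb away on the same strand, stood at 428 ± 58.0 CPM in control, 302 ± 94.2 in acetate and 303 ± 21.4 in ethanol, and its ethanol difference of -0.49 did not pass (adjusted p = 0.24). Ly86, 295 kb away on the other side, reached at most 0.03 CPM. Gm30489, which was not analysed here, shares 74 of the 6739 exonic bases of F13a1 on the opposite strand. Beside Tgm2, D630003M21Rik had under 1 CPM in every library. Rprd1b overlaps Tgm2 on the opposite strand and shares 370 of the 4608 exonic bases of Tgm2. Gm20412, which was not analysed here, shares 633 of them, also on the opposite strand. Whether counting used the strand is not given in the sources used here. In the overlaps, reads of F13a1 or Tgm2 and of these opposite-strand genes therefore cannot be told apart. Rprd1b stood at 50.0 ± 3.37 CPM in control, 53.0 ± 4.45 in acetate and 55.6 ± 1.82 in ethanol, with differences of 0.08 (adjusted p = 0.68) and 0.15 (adjusted p = 0.50).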

How the data were processed

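The authors deposited 1 table of log2 values, TMM-normalised counts per the file name. The submitters' processing notes name Partek, Bowtie2 2.2.5, STAR 2.7.8a and mm10 without roles. The sources used here do not state the annotation or the counting. The value at which genes without reads sat in each library was subtracted after raising to a power of 2, which gave TMM-scaled CPM. Taking that value as 1e-05 read, 1 read was worth 0.0231 to 0.0348 CPM. Only 85.7% to 87.4% of the values from 1 to 20 reads were whole within 0.02 read, so no count test was used.

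For the 12868 genes that averaged 1 CPM or more, log2(CPM + 1) went into limma 3.58.1 (R 4.3.3), with 1 mean per group, 1 variance per gene, a mean trend and Benjamini-Hochberg adjustment over all of them. A gene counts as called when its adjusted p is under 0.05; "rose" and "fell" refer to these. The fit was tested on simulated data. Transcript length, GC content and positions came from GENCODE M21 on GRCm38, the build of mm10, for the longest coding transcript (24919 genes matched by symbol, 456 by synonym, 827 not). The active-site codon was located by its conserved motif in the translated reading frame, whose length equalled the annotated coding length. Tables were handled with pandas 2.3.3.

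The genes and lists were chosen with earlier results of these data known. Named genes were F13a1, Tgm2, their family, up to 6 called genes per list and 11 preset ones, the 5 nearest patterns, the flanking genes and the highest cell type markers. Ibsp, Ltbp1, Col3a1, Col5a1, P2rx7, F2r, F2, Rara, Tgfb1, Hif1a, Sox9, Dmp1 and the fibrinogen genes were named after their values were seen.

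Replicate numbers come from the labels. Deviations from group means of same-numbered libraries correlated at 0.55, 0.36 and 0.67 for ethanol and control, and at 0.15, 0.25 and 0.61 for acetate and ethanol. For acetate and control they correlated at 0.25, -0.10 and 0.41, with replicate 2 the lowest. Libraries of different numbers were not correlated for comparison, so these values alone do not settle whether the numbers pair the libraries. The main fit leaves replicate number out, so fits with it as a block are given as alternatives. The choice matters: with ethanol 1074 genes were called with the block and 506 without it.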

Additional observations from a re-analysis of the deposited data

How the results depend on the processing

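Each difference of F13a1 and Tgm2 was recomputed under 20 alternatives (pseudocount, filter, scaling, variance trend, libraries in the fit, replicate block, GC trend and each library left out). F13a1 with acetate against control missed the threshold in all 20. With 1 library left out, F13a1 ranged from -0.30 to -0.05 for acetate against control, from -2.10 to -2.01 for ethanol against control and from 1.75 to 2.00 for acetate against ethanol. Tgm2 ranged from -0.22 to 0.09, from -0.46 to -0.36 and from 0.19 to 0.50. Tgm2 with acetate against control turned to 0.0031 with upper-quartile scaling, to 0.02 without control replicate 1, to 0.03 without acetate replicate 1 and to 0.091 without acetate replicate 3; the cause was not tested. With the replicate block and the GC trend removed, Tgm2 passed at -0.21 (acetate against control) and 0.18 (acetate against ethanol). With the replicate block alone no tested call of F13a1 or Tgm2 changed, with Tgm2 at -0.03 (limma adjusted p = 0.91) and 0.38 (0.18). In that fit 6 of the 6 chondrocyte markers were called lower with acetate, beside 118 of all 12868 genes. For all genes the number called with acetate was 129 and ranged from 0 (limma without control replicate 3, with 1715 genes at an unadjusted p under 0.05) to 2628 (replicate block with the GC trend removed) over the alternatives. With ethanol it was 506 and ranged from 97 (without control replicate 1) to 5040, and for acetate against ethanol 480, from 100 (without ethanol replicate 2) to 4288. F13a1 and Tgm2 rested on at least 646 reads in each library, and the other 8 family genes on at most 23.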
